A study of Mus musculus with 54 samples.

Results

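Of the 113737 accessible regions in the merged list of the OCT4-AID experiments, 13547 were distal peaks made mostly of repeats. A peak entered this set when its centre lay more than 1 kb from every transcription start site (TSS) of the GENCODE release M21 annotation, when over 50% of its bases were soft-masked (written in lower case as repetitive) in the GRCm38 sequence, and when it lay on an autosome. The 88432 distal autosomal peaks therefore held 13547 members, or 15.3% (Wilson 95% interval 15.1 to 15.6%, counting error only), and 74885 other distal peaks with which the members were compared. The rule used the distance to a TSS and masking, so masking is given as a description, and the distance to a protein-coding TSS is compared only among peaks that all passed the 1 kb limit.

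Accessibility was measured by ATAC-seq, in which the Tn5 transposase cuts and tags open DNA, in ZHBTc4 mouse embryonic stem cells. In this line doxycycline (dox) shuts off the endogenous Pou5f1 gene, which encodes OCT4, and every group also expressed 3 constructs. These were mCherry-OCT4-AID, a fusion protein degraded once indole-3-acetic acid (IAA) is added, TIR1-V5, the plant receptor through which IAA acts, and YPet-MD, a reporter for sorting by cell cycle phase. The 54 samples formed 24 groups. There were 8 unsorted groups kept in dox for 34 h, of which 7 had received IAA for 30 min or for 1, 2, 3, 4, 6 or 10 h and 1 had received none. A further 16 groups were sorted into early G1, late G1, S or late S/G2 after 26 h of dox with or without 2 h of IAA, or after 31 h of dox with or without 2.5 h of IAA and with 4.5 h of washout. All samples thus shared the cell line, the 3 constructs and dox, and IAA was used at 500 nM. The list gives positions alone, without any signal, so no value belonged to a sample, depth is unknown, and a peak says only that the region was called in at least 1 of the experiments that were merged.

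Interspersed repeats are remnants of transposable elements that were copied into many places of the genome. Short elements (SINEs) derive from small structural RNAs and carry an internal promoter for RNA polymerase III, whose B box is one of its parts. LINE-1 elements of the mouse begin with an array of tandem promoter units, and retrovirus-like elements are flanked by a long terminal repeat (LTR) at each end, which holds the promoter and which is often left behind alone after recombination. Transcription factor sites inside such sequences travel with the element, and LTRs in particular are known as a source of enhancers in embryonic stem cells.

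Members were aligned to each other to find the sequences that recur. Of the 13547 members, 11827 (87.3%) aligned to at least 1 other member over 100 bases or more with at least 80% identity. Grouping of the alignments around the member with the most partners gave 84 families of at least 20 members, which together held 8614 members (63.6%). At 90% identity 56 families held 4554 members. The 12 largest families, numbered by size from 964 down to 155 members, held 5055 (37.3%). In each family the core is the stretch of the exemplar, the member with the most partners, to which most of the family aligned. The cores on which the results turn are printed in GRCm38 coordinates, in lower case with motif matches in capitals. Families 1 and 8, which are the most densely occupied family and its neighbour, had these cores.
Family 1, chr16:15465644-15465901, plus strand: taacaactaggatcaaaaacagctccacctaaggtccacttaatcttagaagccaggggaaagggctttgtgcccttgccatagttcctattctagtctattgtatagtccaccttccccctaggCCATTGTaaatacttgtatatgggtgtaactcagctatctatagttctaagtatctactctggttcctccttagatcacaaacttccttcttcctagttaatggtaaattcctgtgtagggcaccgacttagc
Family 8, chr1:15755195-15755491, plus strand: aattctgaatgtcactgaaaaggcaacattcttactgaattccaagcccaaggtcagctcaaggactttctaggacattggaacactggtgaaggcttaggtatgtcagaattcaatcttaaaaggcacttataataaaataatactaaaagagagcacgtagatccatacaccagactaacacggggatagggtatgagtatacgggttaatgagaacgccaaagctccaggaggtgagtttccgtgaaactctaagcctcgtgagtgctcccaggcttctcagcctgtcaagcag

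The capitals in family 1 are CCATTGT, the SOX motif, at positions 126 to 132 counted from 1 at the start of the printed stretch. Its exemplar is a peak of 258 bp in no annotated gene, 129 kb from Ube2v2, whose protein-coding TSS was the nearest. The exemplar of family 8 is a peak of 644 bp in no annotated gene, 50.3 kb from the TSS of Terf1. No motif match was found in the core of family 8.

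Families 2 and 7 are the tandemly repeated ones among the 12 largest, and family 15 is shown beside them for its repeated YY1 motif.
Family 2, chr10:108215920-108216099, plus strand: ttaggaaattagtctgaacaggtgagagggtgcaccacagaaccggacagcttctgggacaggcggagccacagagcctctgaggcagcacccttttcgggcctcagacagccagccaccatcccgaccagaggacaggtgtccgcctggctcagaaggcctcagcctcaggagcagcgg
Family 7, chr17:23463135-23463331, plus strand: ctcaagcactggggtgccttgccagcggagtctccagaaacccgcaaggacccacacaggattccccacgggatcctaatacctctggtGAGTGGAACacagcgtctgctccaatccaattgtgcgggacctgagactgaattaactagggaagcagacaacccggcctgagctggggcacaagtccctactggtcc
Family 15, chr14:115385125-115385380, plus strand: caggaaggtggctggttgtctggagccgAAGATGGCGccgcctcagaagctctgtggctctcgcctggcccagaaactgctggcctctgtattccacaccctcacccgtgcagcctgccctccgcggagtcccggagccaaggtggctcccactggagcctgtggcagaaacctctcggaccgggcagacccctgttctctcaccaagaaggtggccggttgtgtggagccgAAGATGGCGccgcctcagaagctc

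The capitals in family 15 are AAGATGGCG, the YY1 motif, at positions 29 to 37 and again at 233 to 241, so that the printed stretch spans more than 1 unit. The capitals in family 7 are a match to GTTCNANNC, the B box motif, on the other strand. The exemplars of these families lie inside annotated genes, and their nearest protein-coding TSSs are those of Ppp1r12a at 33.6 kb (family 2), Vmn2r117 at 16.5 kb (family 7) and Gpc5 at 293 kb (family 15).

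Families 3 and 4 are the abundant short elements, with their B box matches in capitals, and family 4 also shows a CTCF match at positions 113 to 124.
Family 3, chr17:46276804-46276957, plus strand: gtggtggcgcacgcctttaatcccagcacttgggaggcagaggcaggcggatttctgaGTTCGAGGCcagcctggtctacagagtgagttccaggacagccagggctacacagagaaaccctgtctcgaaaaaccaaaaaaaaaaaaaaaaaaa
Family 4, chr11:59128639-59128802, plus strand: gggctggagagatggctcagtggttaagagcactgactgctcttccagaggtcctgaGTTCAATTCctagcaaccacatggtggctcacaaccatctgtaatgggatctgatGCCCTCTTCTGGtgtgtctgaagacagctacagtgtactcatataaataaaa

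The core of family 3 aligned with 93.8% identity over 129 bases to the B1_Mus2 SINE that RefSeq annotates, and over 51 bases to the 7SL RNA genes Rn7s1 and Rn7s2, from which B1 elements are known to derive. The core of family 4 aligned over 57 bases (77.2% identity) to annotated tRNA genes, and tRNA-derived SINEs of the mouse include the B2 elements, which are known to carry CTCF sites. Among the 12 largest families only these 2 aligned to an element or small RNA that RefSeq annotates, so the other 10 are called by their number.

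Families 10, 11 and 6 are shown because some of their copies recur at 1 distance of several kb or because they are often occupied.
Family 10, chr15:23717046-23717255, plus strand: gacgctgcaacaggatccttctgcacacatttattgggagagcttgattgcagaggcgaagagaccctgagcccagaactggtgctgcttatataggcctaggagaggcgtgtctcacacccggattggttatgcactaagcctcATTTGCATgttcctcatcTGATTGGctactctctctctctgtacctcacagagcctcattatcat
Family 11, chr13:9547629-9547928, plus strand: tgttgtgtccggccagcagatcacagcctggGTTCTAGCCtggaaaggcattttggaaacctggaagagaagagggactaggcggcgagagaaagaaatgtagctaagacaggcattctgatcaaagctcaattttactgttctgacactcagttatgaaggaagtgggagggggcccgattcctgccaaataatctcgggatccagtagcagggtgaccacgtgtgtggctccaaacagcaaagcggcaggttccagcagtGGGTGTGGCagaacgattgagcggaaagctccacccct
Family 6, chr3:16259228-16259368, plus strand: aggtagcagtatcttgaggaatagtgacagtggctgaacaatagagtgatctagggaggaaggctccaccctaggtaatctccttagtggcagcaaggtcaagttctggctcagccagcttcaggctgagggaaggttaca

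In family 10 the capitals mark ATTTGCAT, the OCT motif bound by OCT4 and related factors, at positions 146 to 153 and the NFY motif CCAATCA on the other strand at positions 164 to 170. In family 11, of whose 338 bases the first 300 are printed, they mark a B box match and the KLF motif GGGNGNGGC. None of the searched motifs was found in the core of family 6. The exemplar of family 10 lies 543 kb from the nearest protein-coding TSS (Cdh18), that of family 11 lies 62.8 kb from the TSS of Dip2c and that of family 6 lies 76.1 kb from the TSS of Ythdf3.

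The families differed widely in how many of their genomic copies held the centre of a called peak. Distal copies of each core were searched on the autosomes with the same limits (80% identity, 100 bases), and a copy was called occupied when it held the centre of a distal peak. A copy inside a peak whose centre lay elsewhere counted as unoccupied, so an unoccupied copy is not shown to be inaccessible. Among all 1303682 distal soft-masked runs of at least 100 bases, 8445 were occupied, a background of 0.648%. The runs were not matched to the copies in length, and a longer stretch can more easily hold a centre. Of the 1796 copies of family 1, 730 (40.6%, interval 38.4 to 42.9%) were occupied, 62.7 times the background. Among the 12 largest, family 6 followed with 195 of 1119 copies (17.4%), and family 11 with 194 of 1984 (9.78%). The intervals of these families did not overlap. Of the smaller families, 5 had a higher share than family 6, and they are named after their values were seen. They were family 70 (30.3% of 185 copies), family 81 (27.6% of 127), family 16 (24.2% of 743), family 25 (19.3% of 636) and family 37 (18.5% of 205).

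The tandem and intermediate families lay between these and the SINEs. Family 8 was occupied at 7.82% of 1521 copies, family 2 at 5.77% of 9614, family 10 at 4.30% of 3092 and family 7 at 2.16% of 12434. Families 9 (0.754% of 18973 copies) and 12 (0.587% of 19923) had intervals that included the background. The abundant families were occupied less often than the masked runs at large, without matching for length. This held for family 3, the B1 elements, with 391 of 159087 copies (0.246%), for family 4 with 295 of 92449 (0.319%) and for family 5 with 303 of 91528 (0.331%). A family needed 20 members to be formed, so families of few copies could not show a low share, and the fall of the share with copy number is in part fixed by that choice.

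**Figure D1:**
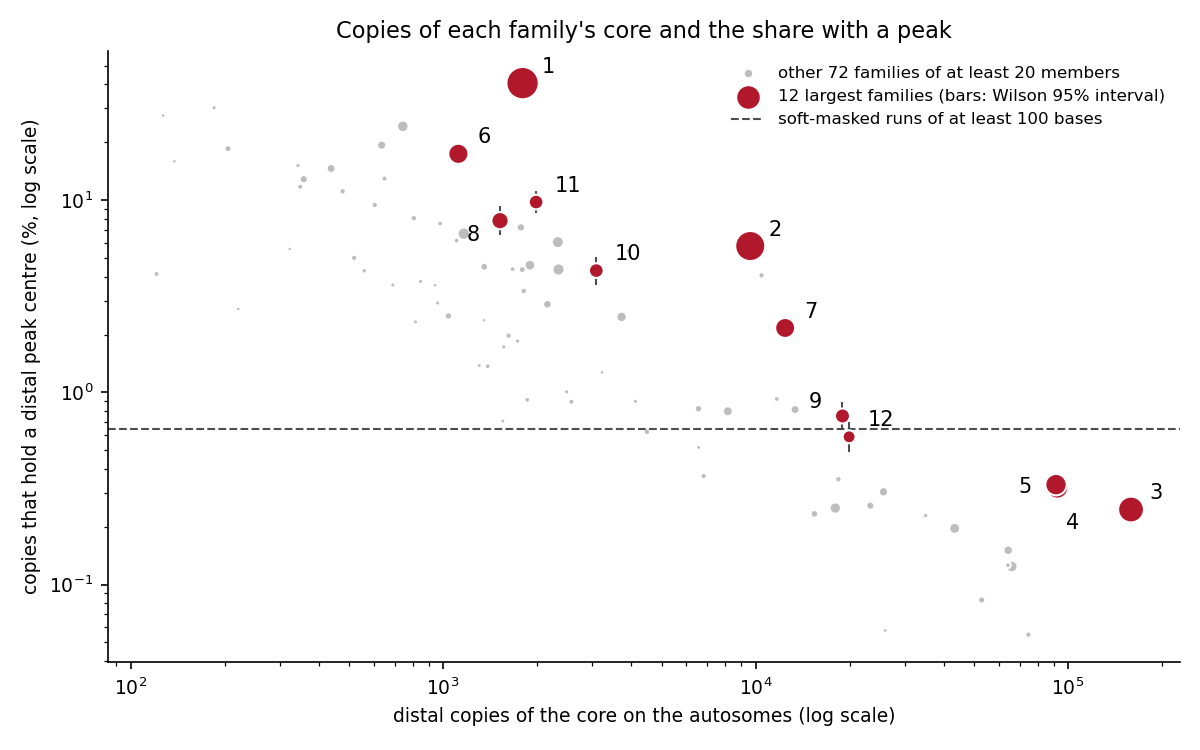
Each point is a sequence family, placed by the number of distal copies of its core (x axis, log scale) and the percentage of those copies that hold a distal peak centre (y axis, log scale), with an area that grows with its number of members. Family 1 stands at 40.6% with 1796 copies, whereas family 3 lies at 0.246% with 159087 copies, under the dashed line at 0.648% for soft-masked runs.

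Occupied and unoccupied copies were also compared in how well reads can be placed on them. Occupied copies held more words of 75 bases (the read length) that occur once in the genome in each of the 12 families. The gap was small in family 1 (79.8% of words unique in occupied and 76.3% in other copies) and in family 8 (89.7 and 87.4%). It was wide in family 5 (93.2 and 56.8%), in family 11 (77.7 and 51.8%) and in family 2 (44.6 and 27.5%). The part of read placement in the shares of occupied copies was not tested. The median identity to the core was near equal, at 89.1% in occupied and 87.8% in other copies of family 1, and of 86.2 and 86.1% in family 11.

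Members of family 1 were wide, with a median width of 924.5 bp against 331 bp for all members. Members of family 1 were found on all 19 autosomes, from 20 members on chromosome 19 to 95 on chromosome 1, and 75.8% had their centre in no annotated gene. The centres of members of any family within 500 bp of a copy of its core were counted once per copy, 1050 in all. They lay at a median of 2 bp from the middle of the core (quartiles -72 and 76 bp). Family 8 turned out to be its neighbour. A copy of family 8 lay within 2 kb of 23.7% of the copies of family 1 on the same strand, at a median of 308 bp downstream, and within 2 kb of 0.167% on the opposite strand. A copy of family 1 lay within 2 kb of 27.7% of the copies of family 8 on the same strand, at a median of 308 bp upstream. The centres of members within 500 bp of copies of family 8 lay at a median of -248 bp, that is upstream of the core, and these offsets were not split by the presence of family 1. A like pair was formed by families 5 and 12, since 60.2% of the copies of family 12 had a copy of family 5 within 2 kb on the opposite strand, at a median of 160 bp upstream.

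**Figure D2:**
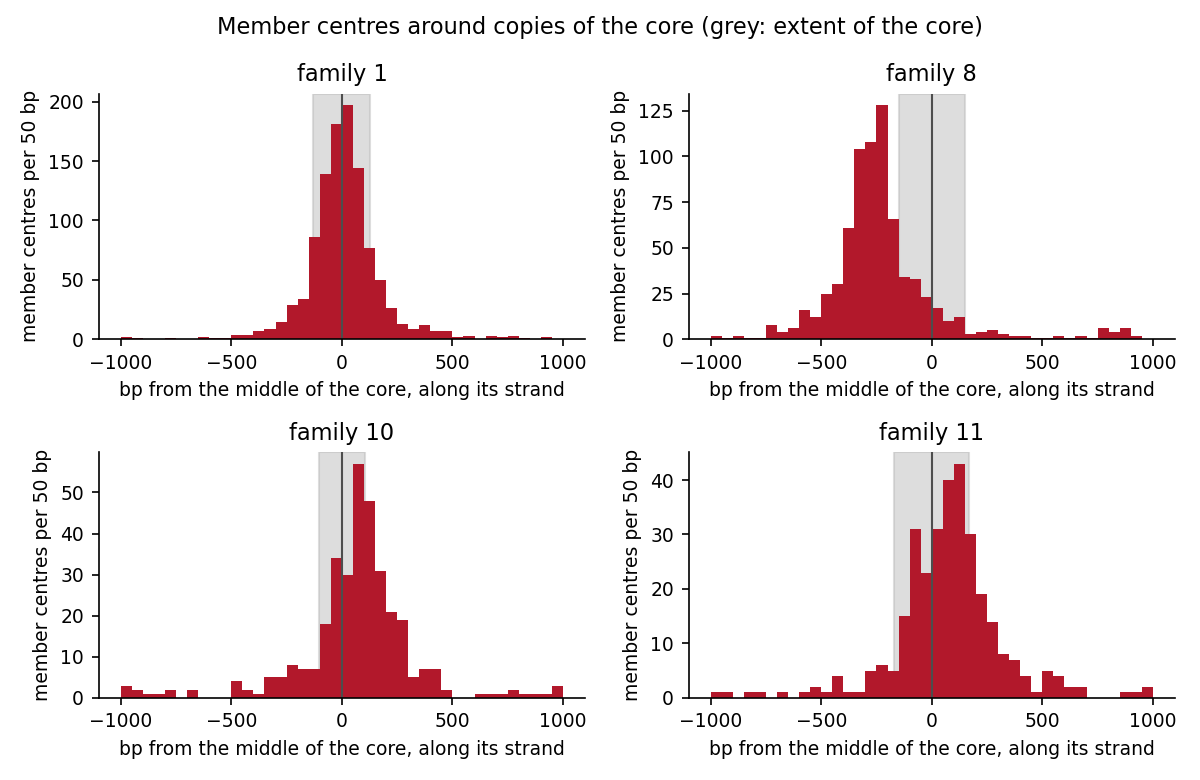
The distance of member centres from the middle of the core, for every copy within 1 kb, is plotted along the strand of the core (x axis, bp) as the number of centres per 50 bp (y axis), with the extent of the core in grey, for families 1, 8, 10 and 11. A centre near several copies is counted once for each. Centres sit on the core of family 1 (median 2 bp), to the left of that of family 8 (median -248 bp), and to the right of the middle in families 10 (88 bp) and 11 (75 bp).

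Fixed spacings were found in the tandem families. Neighbouring copies of family 2 on the same strand lay 200 to 219 bp apart in 4490 of the 5094 pairs within 12 kb, with a median of 212 bp, and in family 7 the same distance was found in 3726 of 7018 pairs, with a second distance of 140 to 159 bp in 1840 pairs. Smaller families had it too, such as family 48 with 3943 of 6821 pairs, named after its values were seen, whereas family 15 had 37 of 99 pairs at 220 to 279 bp. Family 48 has 37 members, yet 425 of its copies held a member centre, so most of these centres belonged to members outside it. Copies of different families can overlap, so its pairs may not be separate from those of larger families. The period could also be read inside single members. A member was given a period when a stretch of 100 bp or more matched itself at that shift in 40 of 50 bases throughout. Of the 13547 members, 873 (6.44%) had a period above 50 bp, against 173 (0.231%) of the other distal peaks, and the commonest such periods were 214 bp (211 members), 212 bp (177), 117 bp (71) and 208 bp (46). Of the members with such a period, 459 belonged to family 2 and 204 to family 7. Tandem repeats are themselves masked sequence, so a higher share in members follows from the rule and is a description. Short units were found in fewer members than long ones. Periods of 1 to 6 bp were present in 91 members (0.672%, against 0.184%), most often of the unit AAAG (17 members) or AG (11), and periods of 7 to 50 bp in 138 (1.02%, against 0.529%).

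Counted per array, arrays of family 2 were occupied more often than lone units. Same-strand copies at most 300 bp apart were joined into arrays, and 362 of the 1857 arrays of 2 or 3 copies held a peak centre (19.5%, interval 17.8 to 21.4%). Lone copies held one in 78 of 2124 cases (3.67%), and arrays of 4 or more copies in 108 of 637 (17.0%). A longer array has more room for a centre, and no adjustment for length was made. The arrays of 2 or 3 held 4272 copies and those of 4 or more held 3218. Per copy, arrays of 2 or 3 were still above lone copies, whereas arrays of 4 or more were not. In the arrays of 2 or 3 copies the centre lay on the first copy, read along the strand of the printed core, in 257 cases, on the second in 98 and on the last, which in arrays of 2 is also the second, in 59. In arrays of 4 or more it lay on the first in 31 cases and on the second in 31 of 108. Family 7 showed a smaller step per array, from 2.83% of lone copies to 4.95% of arrays of 2 or 3 and 9.54% of arrays of 4 or more, with 16 centres on the first and 21 on the second copy in the latter. Its 145 occupied arrays of 2 or 3 stood against 6741 copies in such arrays, and its 64 of 4 or more against 3640. Per copy, neither was above the lone copies of family 7. Of the 12 largest families, family 2 also had the lowest share of unique 75-base words in its members, at 62.2%.

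Families 10 and 11 showed a second kind of spacing, of several kb. In family 10 the commonest distance between neighbouring same-strand copies was 6660 to 6679 bp (38 of 473 pairs within 12 kb) and in family 11 it was 5160 to 5179 bp (38 of 349), so these distances describe a minority of pairs. Retrovirus-like elements carry the same LTR at both ends, several kb apart, which is background and was not established for these families. None of the 121 copies of family 10 in pairs 6640 to 6699 bp apart held a peak centre, whereas 133 of the 2971 other copies did (4.48%). The 0 of 121 has an interval up to 3.08%. In family 11 1 of 146 copies in pairs 5140 to 5199 bp apart was occupied (0.685%, interval 0.121 to 3.78%), against 193 of 1838 others (10.5%, interval 9.18 to 12.0%). Paired copies were also the less unique ones, with 14.3% of their 75-base words unique in family 10, against 53.4% in other copies, and with 19.7 against 57.8% in family 11. In other families the less unique pairs went both ways. They were occupied more often than other copies in families 2, 3, 7 and 9. In families 1, 4, 5, 6 and 12 they were occupied less often. In family 9, copies in pairs 2100 to 2159 bp apart had 60.8% unique words against 91.9%. Of these paired copies 7 of 452 were occupied (1.55%, interval 0.752 to 3.16%), against 0.734% (interval 0.621 to 0.868%). In family 2, copies in pairs 180 to 239 bp apart had 18.5 against 62.6% and were occupied in 6.39 against 4.08%. In family 6, copies in pairs 6360 to 6419 bp apart had 44.7 against 86.7% and were occupied in 5.56% (1 of 18) against 17.6%. The part of read placement in these differences was not tested.

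**Figure D3:**
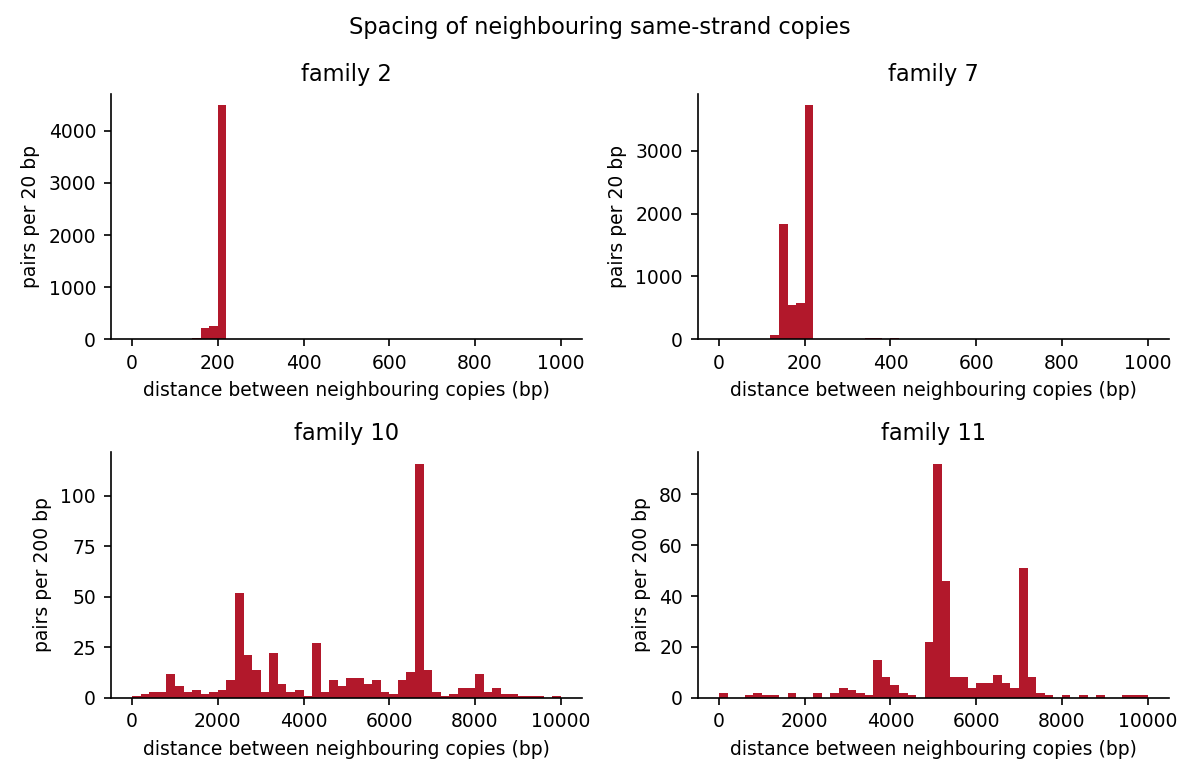
The distance between neighbouring copies of a core on the same strand (x axis, bp) is plotted against the number of pairs per bin (y axis, 20 bp bins for families 2 and 7, 200 bp bins for families 10 and 11). Families 2 and 7 peak at 200 to 219 bp, with a second peak at 140 to 159 bp in family 7, and families 10 and 11 peak near 6660 and 5160 bp.

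Gaps between neighbouring members themselves seldom repeated a length exactly. The median gap between member centres was 76.1 kb, 828 members (6.11%) had another member within 1 kb, and 2059 (15.2%) within 5 kb. The 5 most repeated gaps were 333 and 365 bp, each seen in 5 pairs, and 263, 275 and 322 bp, each seen in 3, of 13528 gaps. In bins of 250 bp up to 10 kb, gaps were most frequent at 250 to 499 bp (177 pairs), followed by 127 pairs at 500 to 749 bp. Between 5250 and 7999 bp the bins held 38 to 52 gaps each, and from 2000 to 4999 bp they held 27 to 43. Of the neighbouring members of family 6, 11 pairs lay 5 to 8 kb apart, and no neighbouring members of family 10 lay within 12 kb of each other. No 2 members had the same sequence over their whole length.

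A set of 9 motifs known from stem cells or from repeats were then searched in 300 bp around each peak centre, on both strands, in members and in the other distal peaks. The letters were ATTTGCAT (OCT), CCATTGT (SOX), GGGNGNGGC (KLF), TCAAGGTCA (ESRRB), CCAATCA (NFY), AAGATGGCG (YY1) and GTTCNANNC (B box), while OCT4::SOX2 (up to 2 mismatches) and CTCF (up to 1) were matched by their consensus. The OCT4::SOX2 consensus contains the OCT letters on the other strand and all but the first of the SOX letters, so these matches can overlap. The shares were compared on each of the 19 autosomes, and the differences were tested with an exact two-sided sign-flip permutation test over chromosomes, with Benjamini-Hochberg adjustment over the 9 motifs. Over all 88432 distal windows, matches were found in 0.494% (OCT4::SOX2), 2.04% (OCT), 6.69% (SOX), 12.1% (KLF), 2.13% (ESRRB), 12.8% (CTCF), 4.51% (NFY), 1.01% (YY1) and 12.4% (B box), and a match is a description of the letters and not a bound site. The smallest p this test can give is 3.81e-06, or 4.90e-06 as adjusted here. Peaks of 1 family share their sequence, so the members are not independent, and the test measures only the spread between chromosomes.

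The YY1 motif, bound by a zinc finger factor that can activate or repress, had the largest ratio between members and other peaks. It was found in 643 members (4.75%) and in 248 other distal peaks (0.331%), 14.3 times as often. The mean over chromosomes was 4.64% ± 1.05 (SD, n = 19) in members and 0.332% ± 0.0783 in the others, with members higher on 19 of 19 (exact permutation test, adjusted p = 4.90e-06). The lowest chromosome of the members (3.29%) lay above the highest of the others (0.448%). Family 2 supplied 424 of the 643 matches and family 15 another 73. In the 12581 members outside both families the share was 1.16%. In family 2 the letters lay beside the printed core, within 60 bp of 7305 of the 9614 copies (76.0%), always on the strand opposite to the core. Of the copies with these letters 5.48% were occupied (interval 4.98 to 6.02%), and of those without 6.71% (interval 5.76 to 7.81%).

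SOX, OCT and NFY motifs were also more frequent in members. The SOX motif was present in 1575 members (11.6%) and in 5.80% of the others, with a mean difference of 6.17 percentage points ± 2.18 (SD over n = 19 chromosomes, higher on 19, adjusted p = 4.90e-06, exact permutation test). In peaks of 200 to 600 bp the difference was 2.01 points (7.51 against 5.50%, higher on 18). Family 1 held 697 of these members and family 8 held 116. In the 12308 members outside these families the share was 6.19%. The OCT motif was present in 452 members (3.34%) against 1.81% of the others, a mean difference of 1.60 points ± 0.773 (SD, n = 19, higher on 19, adjusted p = 4.90e-06, exact permutation test). Family 10 held 166 of them and family 13 held 65, and outside both, which were removed for holding the most matches, the share was 1.67%. Family 13, with 146 members, aligned over 133 bases (82.0% identity) to the LTRIS4 LTR that RefSeq annotates.

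The NFY motif, the CCAAT-box sequence of many promoters, was found in 969 members (7.15%) against 4.03% (difference 3.07 points ± 1.54, SD, n = 19, higher on 19, adjusted p = 4.90e-06, exact permutation test). Family 10 held 173 of them and family 7 held 48, and outside both families the share was 5.76%. The 200 members of family 10 carried OCT in 83.0% and NFY in 86.5%, as the printed core shows, and of the 207 members with both motifs 152 were of family 10, while 68 (0.0908%) of the other distal peaks had both. The B box motif was found in 2625 members (19.4%) against 11.2% (difference 8.41 points ± 2.15, SD, n = 19, higher on 19, adjusted p = 4.90e-06, exact permutation test), with 306 in family 3, 267 in family 4 and 65.9% of family 7. Outside families 3 and 4 the share was 16.4%.

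KLF and CTCF motifs were less frequent in members, and for OCT4::SOX2 and ESRRB the call depended on the setting. KLF matches, read by zinc finger factors of the pluripotency network, were found in 8.33% of members and 12.8% of the others (difference -4.20 points ± 1.43, SD, n = 19, higher on 0, adjusted p = 4.90e-06, exact permutation test). CTCF, which holds chromatin loops in place, was matched in 9.26% against 13.5% (difference -4.01 points ± 1.20, SD, n = 19, higher on 0, adjusted p = 4.90e-06, exact permutation test). In peaks of 200 to 600 bp both differences were smaller, at -1.76 points for KLF (9.04 against 10.8%) and -2.37 for CTCF (10.7 against 13.1%), each lower in members on all chromosomes but 2. Single families went the other way. CTCF was matched in 250 of the 442 members of family 4 (56.6%) and in 50.3% of family 11, and KLF in 58.3% of family 11 and 37.0% of family 9.

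The OCT4::SOX2 composite, at which both factors bind side by side, was matched in 44 members (0.325%) and 393 other peaks (0.525%). The chromosomes overlapped widely (members 0 to 0.645%, others 0.171 to 0.689%), and members were higher on 7 of 19 (difference -0.183 points ± 0.269, SD, n = 19, adjusted p = 0.0111, exact permutation test). In the same exact permutation test the difference was -0.0104 points with 1 mismatch fewer (adjusted p = 0.525) and -0.126 with 1 more (adjusted p = 0.631), but -0.373 when the whole peak was searched (adjusted p = 3.43e-05). In peaks of 200 to 600 bp it was -0.148 points (adjusted p = 0.120, exact permutation test). The match of ESRRB, an orphan nuclear receptor, was found in 1.85% against 2.18% (difference -0.307 points ± 0.507, SD, n = 19, higher on 5, adjusted p = 0.0174, exact permutation test). This call was lost when distal meant beyond 5 kb (-0.218 points, adjusted p = 0.0859, exact permutation test) and in peaks of 200 to 600 bp (-0.215 points, adjusted p = 0.105), whereas the difference was -0.672 points in whole peaks and -1.11 in members with over 75% of bases masked.

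**Figure D4:**
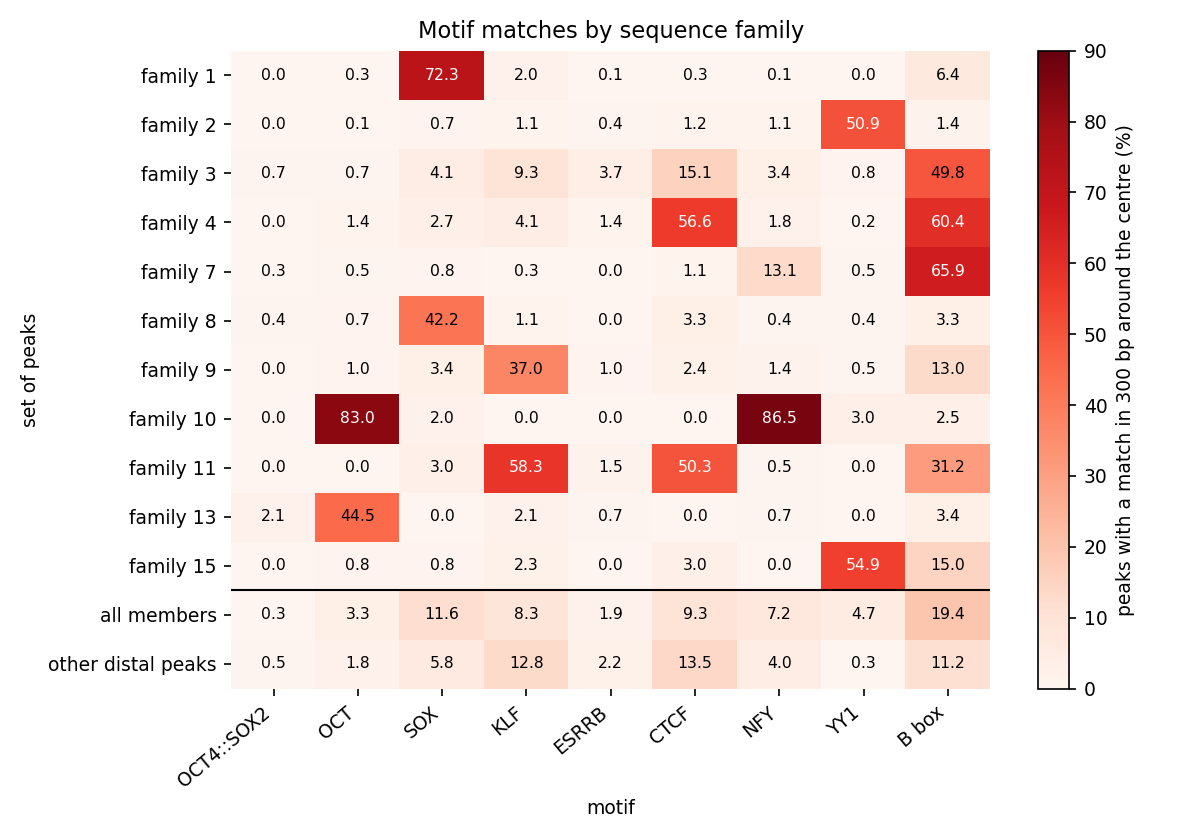
Rows are sequence families, all members and the other distal peaks, columns are motifs, and each cell gives the percentage of peaks with a match in 300 bp around the centre. SOX, YY1 and OCT are concentrated in a few rows, whereas the B box is spread over many, with SOX at 72.3% in family 1, YY1 at 50.9% in family 2, OCT at 83.0% and NFY at 86.5% in family 10.

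Within a family, copies that held the letters of a motif could be set against copies that lacked them. For CTCF in family 4, 180 of 37437 copies with a match were occupied (0.481%, interval 0.416 to 0.556%) and 101 of 47376 without (0.213%, interval 0.175 to 0.259%), with a higher share on 16 of 19 chromosomes. For KLF in family 11 the shares were 11.8% of 1402 copies with and 5.31% of 433 without (intervals 10.2 to 13.6% and 3.57 to 7.84%), higher on 18 of 19. For SOX in family 1 they were 42.5% of 1445 and 36.2% of 318, with intervals that overlapped, higher on 14 of 19. For OCT in family 10 they were 5.37% of 2010 and 5.94% of 286, with overlapping intervals. The B box in family 4 went the other way, with 0.269% of 74331 copies with and 0.529% of 17970 without it occupied, higher on 2 of 19. The B box in family 7 (2.25 and 1.94%), family 3 (0.240 and 0.254%) and family 11 (11.8 and 12.0%) and NFY in family 10 (5.43 and 8.75%) had overlapping intervals. Copies with and without a motif also differed in their identity to the core, and no adjustment for it was made. It was 93.3 and 85.3% for OCT in family 10, and 93.3 and 87.7% for NFY there. For CTCF in family 4 it was 89.7 and 88.2%, for KLF in family 11 86.05 and 87.5%, and for SOX in family 1 88.4% in both. The motif comparisons, YY1 in family 2 included, were chosen after the cores were seen and were not tested.

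Compared as a whole with the other distal peaks, members were narrower and farther from genes. The median width was 335 bp ± 18.7 (SD, n = 19 chromosomes) in members and 394 bp ± 24.6 in the others, lower on each of the 19 autosomes (difference -59.3 bp ± 13.6, adjusted p = 8.90e-06, exact permutation test over chromosomes, adjusted over 7 comparisons). The rule sets masked bases against the width of the peak, so a short repeat fills a narrow peak more easily. The width difference can therefore follow in part from the rule, and it was -87.2 bp in members with over 75% of bases masked. Members between 200 and 400 bp made up 54.0%, against 45.7% of the others, while those of 1000 bp or more were near equal at 7.46 and 7.21%. Of the 75-base words of members, 89.0% ± 1.25 were unique, against 99.2% ± 0.518 (SD, n = 19). With 36-base words the shares were 66.8 and 97.5%. Masking marks repeated sequence, so a lower share follows from the rule, and these values are a description. Whether regions that are less unique were called less often was not tested, and no counts per region were used here.

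The median distance to the nearest protein-coding TSS was 76.8 kb ± 44.3 in members and 35.8 kb ± 12.4 in the others (n = 19, higher on 18, adjusted p = 1.07e-05, exact permutation test). Chromosome 14 stood highest in both sets, with 220 kb in members and 73.5 kb in the others, and chromosome 7 was the exception with 19.1 and 19.3 kb. The centre lay in no annotated gene in 66.1% ± 4.42 of members against 46.1% ± 3.76 (n = 19, higher on 19, adjusted p = 8.90e-06, exact permutation test). By count, 9066 members lay in no gene, 4278 in introns and 203 in exons, whereas 5255 of the other distal peaks (7.02%) were exonic. The families differed here too, since 36.2% of family 4 and 47.5% of family 3 lay in no gene, against 75.8, 74.2 and 79.8% of families 1, 2 and 7. Another distal peak lay within 5 kb of 37.8% ± 4.90 of members and 44.4% ± 2.39 of the others (n = 19, higher on 2, chromosomes 13 and 14, adjusted p = 1.78e-05, exact permutation test). Within 2 kb the shares were 21.8 and 23.7%, a difference of -1.94 points (higher on 3, adjusted p = 0.00217, exact permutation test).

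Differences in base composition were small. The GC content was 46.6% ± 0.323 in members and 48.0% ± 1.12 in the others (n = 19, higher on 2, adjusted p = 2.67e-05, exact permutation test), and the ratio of observed to expected CpG was 0.250 ± 0.0143 against 0.285 ± 0.0154 (n = 19, higher on 1, adjusted p = 1.07e-05, exact permutation test). Both were smaller in peaks of 200 to 600 bp (-0.605 points and -0.0105). Neither held in members with over 75% of bases masked, where the GC difference was -0.460 points (adjusted p = 0.108) and the CpG difference 0.00371 (adjusted p = 0.504, exact permutation tests).

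**Figure D5:**
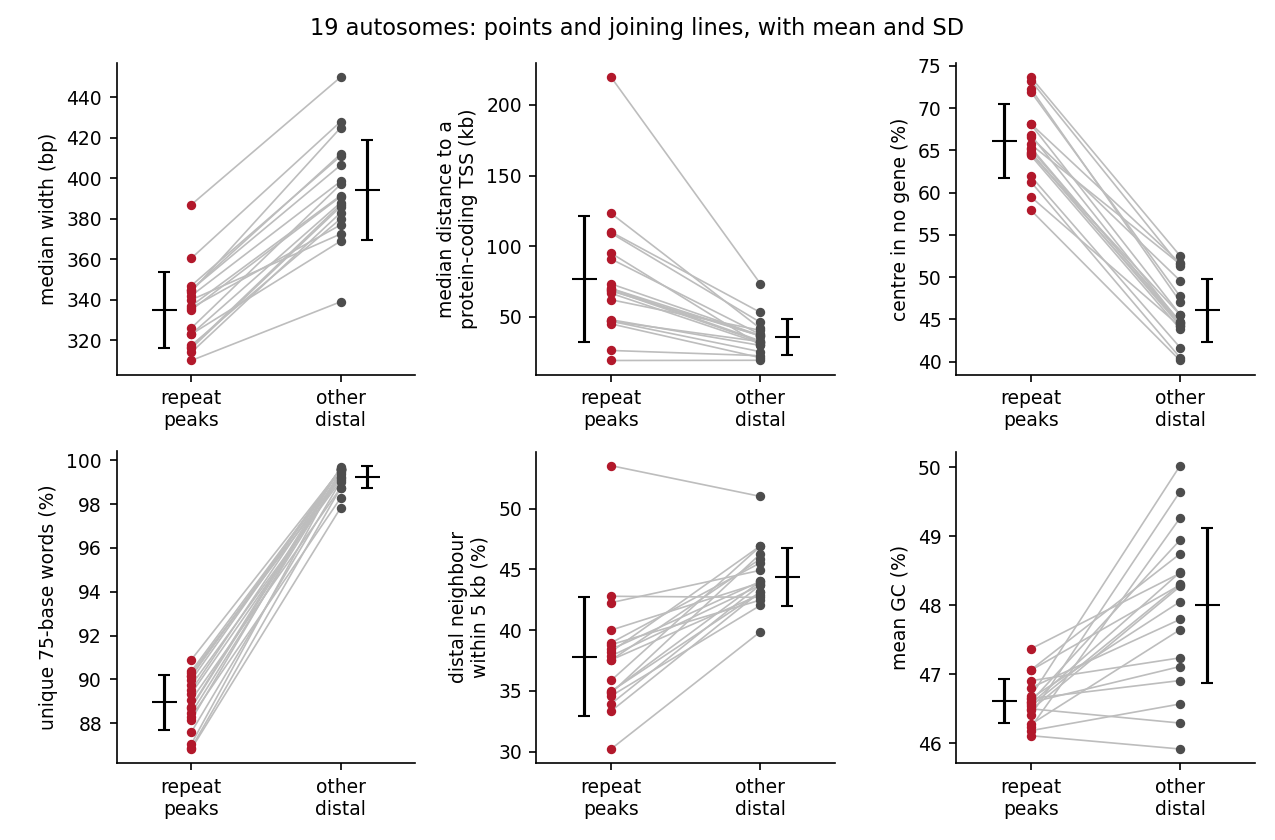
Each point is an autosome and lines join its value in the members (repeat peaks) to that in the other distal peaks, with the mean and SD over the 19 beside them, for 6 quantities named on the y axes with their units, which do not start at 0. Median width and unique 75-base words are lower in members on each of the 19 chromosomes, and the share of centres in no gene is higher on each.

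The members varied in how far they were masked, from 50.1 to 100% with a median of 73.4%, and 998 (7.37%) were masked throughout. Near the threshold the set has no gap, with 321 members at up to 51% and 420 other distal peaks from 49% upward. The members just inside stood at 50.05, 50.07 and 50.07% masked, and 58 peaks just outside at 50% exactly. The base at the centre was masked in 10804 members (79.8%). The masked run at the centre had a median length of 179 bp, with a commonest length of 22 bp in 68 members, and members held a median of 3 runs. Windows of the same width 5 kb to each side of distal peaks were mostly masked in 22.6% of cases, above the 15.3% of the distal peaks themselves. Of all autosomal bases 33.5% were masked. The share of distal peaks in the set ranged from 9.45% on chromosome 19 to 19.5% on chromosome 14.

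The widest members lay at chr13:119596050-119602612 (6563 bp), chr16:3231717-3237703 (5987 bp), chr17:3028088-3033040 (4953 bp), chr11:3100421-3104749 (4329 bp) and chr7:12010412-12014548 (4137 bp). Those on chromosomes 11, 17 and 16 lay 0.420, 28.1 and 232 kb from the first sequenced base of their chromosome, next to the centromere, and those on chromosomes 16 and 17 belonged to the same family of 20 members. Within 100 kb of the first sequenced base there were 38 members on 11 chromosomes and 71 other distal peaks. Regions this wide are ones that the study's methods describe as removed above 5 kb, and 2 members exceeded that width.

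A member lay within 50 kb of a TSS for 7951 of 20722 autosomal protein-coding genes (38.4%), and 150 genes had 5 or more. The most, 12 of its 24 distal peaks, lay around Tdpoz3 (chr3:93826020-93827117), a BTB domain gene in a cluster of close copies, and 9 of 24 around its neighbour Tdpoz4, with which it shares peaks. Next came the zinc finger gene Zfp978 (chr4:147361303-147391004) with 11 of 34 distal peaks. Zfp988, another zinc finger gene, Prl2c3, a prolactin-related gene, and Gm13212 had 10 each. Zfp951, Gm12794, 4930572O03Rik and the odorant receptor gene Olfr785 had 8 each, which for Olfr785 was 8 of its 10 distal peaks. These neighbourhoods did not share 1 element. The 12 members around Tdpoz3 included 6 from 6 families, and the 11 around Zfp978 included 8 from 5. Zfp978 and Zfp988 lie next to each other and share members. Around Zfp988, 4930572O03Rik and Zfp978 49.1, 55.1 and 57.4% of the members' 75-base words were unique, against 95.1% around Olfr785.

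Of 9 pluripotency genes, members lay within 50 kb of 3. Pou5f1 had 1 of 12 distal peaks (chr17:35496869-35497199, 331 bp, 8984 bp from the TSS, 64.7% masked, with a SOX match), Nanog had 1 of 14 (chr6:122689875-122690601, 727 bp, 17251 bp from the TSS, in family 3, with a KLF match) and Sall4 had 1 of 8 (chr2:168786120-168786362, 243 bp, 19040 bp from the TSS, with an ESRRB match). None lay within 50 kb of Sox2, Esrrb, Klf4, Klf5, Tbx3 or Tfcp2l1, which had 3 to 25 distal peaks each.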

How the data were processed

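The study's 54 ATAC-seq samples, 2 or 3 per group, were represented by 1 table. The authors aligned the reads to GRCm38 (STAR 2.6.1c), removed duplicates (Picard), called peaks (MACS2 2.1.1.20160309) and merged those of dox-treated OCT4-AID cells, so the deposited values are positions of merged regions, with no count or signal. The study's methods also describe the removal of regions over 5 kb, input peaks and blacklisted regions; 11 regions here exceed 5 kb, and whether the other 2 filters were applied to this list, which could remove repeat peaks, is not known. Whether reads with several alignments were kept is not given in the sources used here. Merging keeps a region called in any library, so the list grows with depth and library number. Soft-masked letters came from the RefSeq GRCm38.p6 sequence, for which the masking program is not given in the sources used here, and TSSs from GENCODE M21. Positions are 1-based. The members and the lists of families, motifs and genes were chosen with earlier results of these data known. Families were built with blastn (BLAST 2.17.0, E value 1e-10, word size 15), and no exemplar was taken from chromosome 18. Named were the 12 largest families, the 10 genes with most members, the 5 widest members, the 5 most repeated gaps and 9 pluripotency genes. Statistics used Python 3.11.15, numpy 2.4.6, pandas 2.3.3, scipy 1.17.1 and numba 0.67.0, and plots matplotlib 3.10.9. Chromosomes were the units of all tests, since the list has no replicates, and a two-sided exact sign-flip permutation test was used with a threshold of 0.05. All steps were tested on simulated data and 32 of 32 checks gave the known answer. Intervals are Wilson 95% intervals and cover counting error only.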

Additional observations from a re-analysis of the deposited data

How the results depend on the processing

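Of 409 values recomputed under other settings, 397 kept their direction and side of the threshold or moved within their limits. These include all 304 values without 1 chromosome, of which the difference in distance to a protein-coding TSS ranged from 35.2 to 43.3 kb and the YY1 difference from 4.19 to 4.39 points. With over 75% of bases masked the GC difference was -0.460 points and that of the CpG ratio turned to 0.00371, while those of OCT (3.33), SOX (9.59), YY1 (6.78) and CTCF (-7.30 points) and of the TSS distance (63.7 kb) grew. Whole peaks gave -7.10 points for KLF. In peaks of 200 to 600 bp the OCT4::SOX2 difference was -0.148 points (adjusted p = 0.120) and that of ESRRB -0.215 (adjusted p = 0.105, exact permutation tests), with -0.218 for ESRRB beyond 5 kb. OCT4::SOX2 gave -0.0104 with 1 mismatch fewer and -0.126 with 1 more. The cause was not tested. The share of distal peaks made mostly of repeats was 26.7, 7.18 and 3.38% at thresholds of 30, 75 and 90% of bases, and 22.6% in windows 5 kb to each side. At 90% identity families held 4554 members, at 150 aligned bases 7218, with 56 and 75 families. No paired analysis was possible because the list has no column for any sample. Family borders and copy counts rest on the alignment limits, and depth could not be assessed.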
